A study of Homo sapiens with 18 samples.

Results

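KRT7, KRT8, KRT18 and KRT19, the keratins of luminal breast epithelium, were examined for peaks of the co-repressor TLE3 and the transcription factor FOXA1 in 3 human breast cancer cell lines. They are 4 of 19974 protein-coding genes, chosen by name. A peak was counted for a gene when its centre lay in the gene body or within 30 kb of it, and 517 of the 1134194 peaks in the 12 deposited lists did so. The study immunoprecipitated chromatin (ChIP-seq) for FOXA1 and for TLE3 in MDA-MB-453, SKBR3 and T47D, each as 2 libraries labelled as biological replicates. The cells carried no treatment or genetic change in the labels, and the TLE3 samples received an added protein crosslinking step before formaldehyde that the FOXA1 samples did not. A difference between TLE3 and FOXA1 libraries therefore cannot be told apart from a difference in fixation. MDA-MB-453 and SKBR3 lack the estrogen receptor and T47D expresses it, so each line is 1 model of a tumour type and a difference between lines is a difference between these lines.

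Keratins form the intermediate filaments of epithelial cells as heteropolymers of a type I and a type II chain. KRT7 and KRT8 are type II and lie in the type II cluster on chromosome 12. KRT18 and KRT19 are type I, but KRT18 lies beside its partner KRT8 on chromosome 12, whereas KRT19 lies in the type I cluster on chromosome 17. In the breast these 4 mark the luminal layer, and KRT5 and KRT14 mark the basal layer. FOXA1 is a forkhead pioneer factor of luminal cells that binds DNA itself. TLE3 is a Groucho-family co-repressor that binds no DNA of its own and is brought to chromatin by transcription factors. RNA was not analysed here, so nothing below is a level of keratin expression.

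Peaks of both replicates that overlapped were merged into a site. In 5 of the 6 groups between 77.4% and 97.0% of the peaks of the shorter list overlapped the longer list, but SKBR3 TLE3 stood apart, with 33.9%. Its replicate 2 listed 94363 peaks against 21149 in replicate 1, and 21.7% of the replicate 2 peaks against 93.5% of the replicate 1 peaks overlapped a SKBR3 FOXA1 site. SKBR3 TLE3 sites below are therefore the replicate 1 peaks, and replicate 2 is given separately. Within the keratin windows 17 of the 19 replicate 1 peaks overlapped a replicate 2 peak. List lengths ran from 21149 to 188029 peaks, and all 6 FOXA1 lists were longer than all 6 TLE3 lists. A peak's strength is given as its percentile, the percentage of peaks in its own list with a lower deposited score. The read depth behind the lists is unknown. At a place named by coordinates, each library is given by its strongest peak among those grouped there or covering the middle of the place, and weaker peaks or peaks reaching in from the side are named only where a statement rests on them.

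Of the 4 keratins, 1 had an entry in the RefSeq promoter table (GRCh38.p14), which holds 250 bases before and 50 after a start. That KRT8 entry, chr12:52926420-52926719 on the minus strand, starts inside the KRT8 gene record. It is shown with the promoter of KRT7-AS, an antisense RNA gene inside KRT7, chr12:52247399-52247698 on the minus strand, because FOXA1 and TLE3 sites covered both. Capitals mark the matches to the motifs searched, which were looked for on both strands. The forkhead motif counted as present where the run TGTTTAC was found in the window, where TATTTAC was found there instead, where the promoter held TGTTTGC, or finally where it held the related run TATTTGC. The GATA motif counted where AGATAA stood in the window or where the similar run TGATAA did. AP-2 was searched as GCCNNNGGC with any base at N. The GC box of SP1 was searched as GGGCGG in the same way. AP-1 was searched as TGANTCA with any base at N, and the TATA box by its usual letters TATAAA, and no motif's match overlapped another in these sequences.
KRT8: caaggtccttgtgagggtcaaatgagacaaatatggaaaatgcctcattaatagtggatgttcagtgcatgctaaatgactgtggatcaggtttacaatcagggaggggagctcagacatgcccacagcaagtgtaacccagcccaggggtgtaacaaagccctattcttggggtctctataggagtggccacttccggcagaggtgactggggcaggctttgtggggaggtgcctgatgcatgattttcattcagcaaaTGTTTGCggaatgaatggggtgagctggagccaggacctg
KRT7-AS: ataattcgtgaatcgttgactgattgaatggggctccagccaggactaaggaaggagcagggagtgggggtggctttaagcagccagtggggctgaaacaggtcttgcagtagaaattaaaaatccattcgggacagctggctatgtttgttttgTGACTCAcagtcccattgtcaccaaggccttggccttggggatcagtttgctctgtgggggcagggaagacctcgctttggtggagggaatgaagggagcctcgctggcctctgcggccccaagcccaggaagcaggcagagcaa
The KRT8 entry held a single match, the forkhead letters TGTTTGC at position 10 from the start base, and 12.1% of the 34961 promoters in the table held a forkhead match. Over it lay FOXA1 sites of SKBR3 and T47D and a TLE3 site of T47D, classes of site that covered 12.7%, 22.9% and 13.5% of all promoters. The KRT7-AS promoter held a single match too, the AP-1 letters TGACTCA at position -95, and 7.68% of promoters held an AP-1 match. FOXA1 sites of MDA-MB-453, SKBR3 and T47D and TLE3 sites of MDA-MB-453 and T47D covered it, and MDA-MB-453 TLE3 sites covered 1.88% of all promoters. A match is a run of letters and says nothing of which factor bound there.

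KRT7 (gene 3855, chr12:52233243-52255853) carried its strongest peak inside the gene in every MDA-MB-453 and T47D library and in SKBR3 FOXA1 replicate 1. The strongest peak of SKBR3 FOXA1 replicate 2 lay above the gene in coordinates, at 99.55. Those of SKBR3 TLE3 replicates 1 and 2 lay below it, at 83.03 and 94.9. Over chr12:52235510-52236965, 3044 bp above the lower-coordinate end of the gene, the 6 FOXA1 libraries reached percentiles of 98.7 to 99.8. The TLE3 peaks there stood at 93.3 and 92.1 in MDA-MB-453 and at 90.4 and 94.7 in T47D, and neither SKBR3 TLE3 replicate listed a peak. This place thus held FOXA1 in all 3 lines and TLE3 in MDA-MB-453 and T47D. A second place in the gene, chr12:52247087-52248262 over the KRT7-AS promoter printed above, had the same distribution of sites. FOXA1 stood there at 95.01 and 94.8 in MDA-MB-453, 98.9 and 98.3 in SKBR3, and 99.4 and 99.6 in T47D. TLE3 stood at 65.0 and 35.8 in MDA-MB-453 and at 83.8 and 92.0 in T47D. SKBR3 TLE3 replicate 1 had no peak at that place, and the stronger of the 2 replicate 2 peaks that touched it stood at percentile 19.7.

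Other places around KRT7 differed in which lines held TLE3. Over chr12:52243172-52244630 in the gene body, TLE3 sites were present in all 3 lines, with strongest peaks at percentiles from 31.9 to 87.7 in the 5 libraries other than SKBR3 replicate 2. SKBR3 replicate 1 listed a second, weaker peak there, at 21.8, and replicate 2 stood at 41.1. Below the gene, in the long noncoding RNA gene LINC00592, 2 places contrasted. At chr12:52216796-52217908 TLE3 sites of all 3 lines reached 56.2 to 93.5 beside FOXA1 at 65.1 to 82.8, with SKBR3 TLE3 replicate 2 at 45.7. At chr12:52220802-52222015 FOXA1 was higher, 94.5 to 97.2 in the 6 libraries, and no line had a TLE3 site: MDA-MB-453 replicate 1 and T47D replicate 2 listed 1 peak each, at 1.08 and 45.6, and a SKBR3 replicate 2 peak at 78.9 reached in from the side. By sites, FOXA1 strength did not order these 2 places by TLE3. Above KRT7 in coordinates, over the hair keratin gene KRT86 at chr12:52280066-52281343, SKBR3 and T47D had TLE3 sites at 79.6 in SKBR3 replicate 1 and at 76.0 and 87.1 in T47D. SKBR3 replicate 2 listed a TLE3 peak there at 91.2. MDA-MB-453 had none there, and its FOXA1 peaks, at 86.5 and 78.7, ranked below the 98.1 to 99.6 of the other 4 FOXA1 libraries. No FOXA1 site covered the lower-coordinate end of KRT7, and the nearest lay 1280 to 1411 bp away in the 3 lines.

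**Figure D1:**
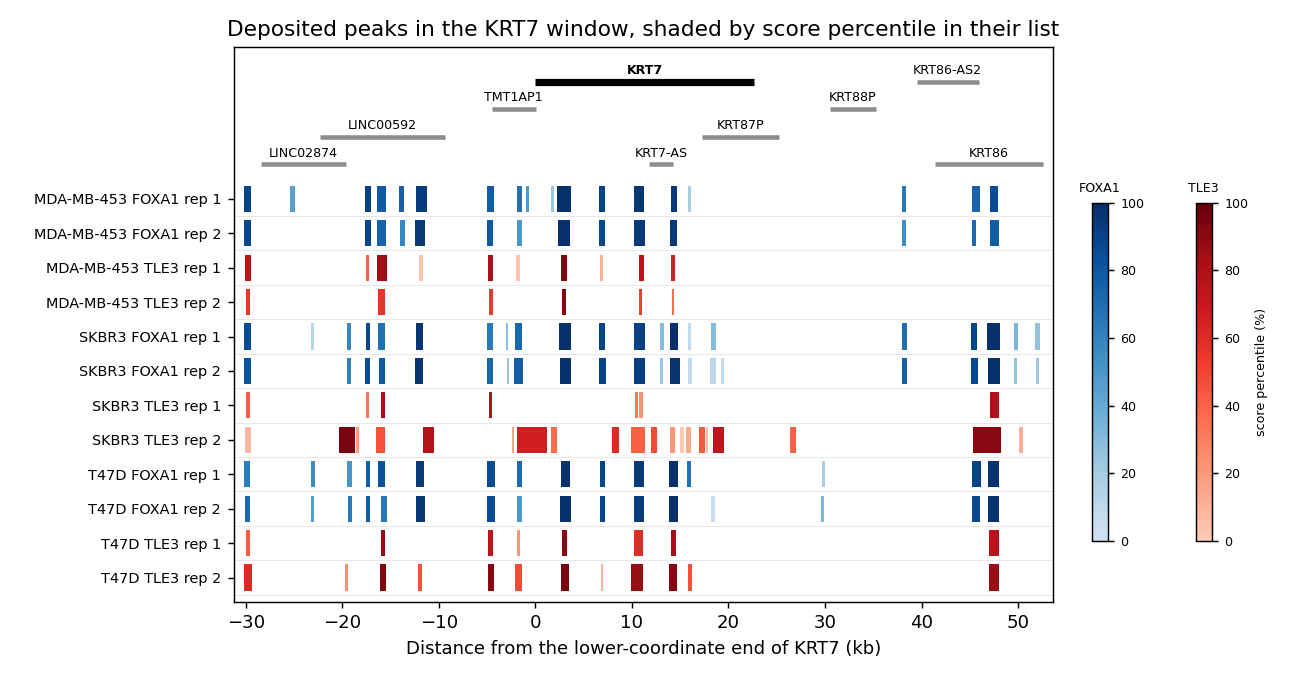
Peaks of the 12 libraries in the KRT7 window, drawn to scale against distance in kb from the lower-coordinate end of KRT7, blue for FOXA1 and red for TLE3, darker for a higher score percentile in the library's own list; gene records are drawn above. The darkest FOXA1 column, 3044 bp above that end, has TLE3 in MDA-MB-453 and T47D and none in SKBR3.

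KRT8 (gene 3856, chr12:52897191-52949860) and KRT18 (gene 3875, chr12:52948855-52952906) form a type II and type I partner pair whose gene records overlap by 1006 bp. Their windows overlap by 61006 bp, so the 2 genes share most peaks: in T47D FOXA1 replicate 1, 13 of the 14 peaks of KRT18 were also peaks of KRT8. Their counts are therefore not independent.

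TLE3 sites of all 3 lines lay at 3 places of the pair. At chr12:52895052-52896339, just below the lower-coordinate end of KRT8, TLE3 stood at 85.1 and 72.7 in MDA-MB-453, 85.5 in SKBR3 replicate 1, and 81.1 and 90.4 in T47D. FOXA1 there stood between 91.4 and 96.6. Replicate 2 of SKBR3 TLE3 ranked it at 24.6. At chr12:52969281-52970765, above KRT18, TLE3 reached its highest rank of the KRT18 window in both T47D libraries, 89.6 and 95.5. The third place, chr12:52948601-52949406, covered the lower-coordinate end of KRT18. FOXA1 was weak there in SKBR3, at 20.3 and 14.6, and stood at 53.6 to 71.0 in the other 2 lines. TLE3 was present at 58.3 and 25.0 in MDA-MB-453, 46.7 in SKBR3 replicate 1, and 79.2 and 86.3 in T47D. SKBR3 TLE3 replicate 2 stood there at 34.9.

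The strongest FOXA1 peak of KRT18 in all 6 FOXA1 libraries lay immediately beside that place, at chr12:52949473-52950590 in the KRT18 body. FOXA1 stood at 97.8 and 97.2 in MDA-MB-453, 92.9 and 90.9 in SKBR3, and 98.5 and 99.3 in T47D. TLE3 sites were present in MDA-MB-453, at 62.8 and 55.0, and in T47D, at 65.0 and 87.2. SKBR3 TLE3 replicate 1 had no peak there. Replicate 2 had 3 that touched the place, at 34.9, 17.4 and 8.51, the first of them reaching in from the side. By sites of both replicates, with replicate 1 for SKBR3 TLE3, this place repeats the line distribution of the first 2 places described in KRT7. The reverse line order held at chr12:52971429-52972477, where TLE3 sites were present in SKBR3, at 71.3 in replicate 1, and in T47D, at 83.8 and 89.5. SKBR3 TLE3 replicate 2 stood there at 18.65. MDA-MB-453 listed 1 TLE3 peak there, at 9.46, and its FOXA1 peaks stood at 56.0 and 35.5 against 70.2 to 88.7 in the other lines. Over the KRT8 promoter printed above, at chr12:52925976-52926972, FOXA1 stood at 70.7 and 71.0 in SKBR3 and at 29.6 and 70.5 in T47D, and TLE3 in T47D at 9.36 and 49.8. Of the latter pair the replicate 2 peak, at 49.8, reached the printed promoter bases and the replicate 1 peak ended before them.

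**Figure D2:**
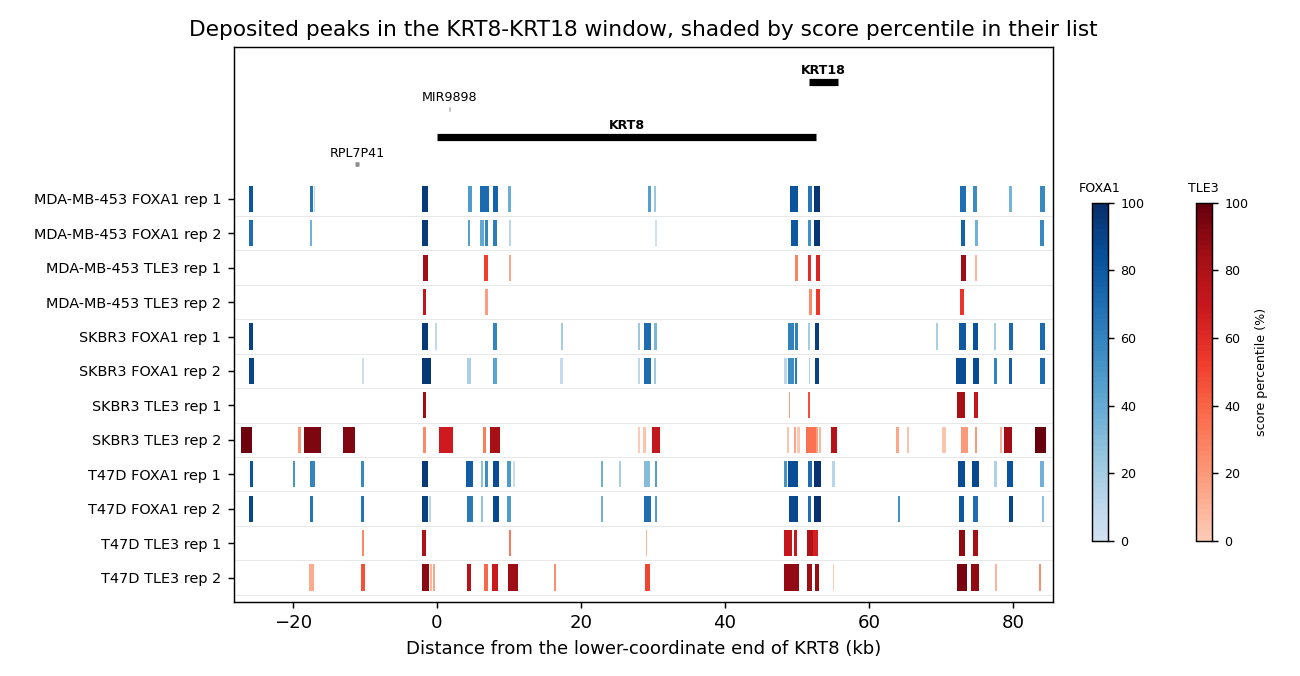
Peaks of the 12 libraries around KRT8 and KRT18, drawn to scale against distance in kb from the lower-coordinate end of KRT8, blue for FOXA1 and red for TLE3, darker for a higher score percentile. TLE3 columns shared by the 3 lines stand just below KRT8, over the lower end of KRT18 and above it, and SKBR3 TLE3 replicate 2 shows wide dark peaks at places where the other TLE3 libraries have none.

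KRT19 (gene 3880, chr17:41523617-41528308), the smallest keratin, which lacks the usual tail domain, had its sites outside the gene body for the most part. TLE3 sites of all 3 lines met FOXA1 at chr17:41538587-41539947, above the gene. FOXA1 stood there at 94.3 and 92.1 in MDA-MB-453, 98.7 and 98.5 in SKBR3, and 99.0 and 99.1 in T47D. TLE3 stood at 82.2 and 60.2 in MDA-MB-453, 79.5 in SKBR3 replicate 1, 32.4 in SKBR3 replicate 2, and 93.4 and 98.5 in T47D. MDA-MB-453 was the lowest line for FOXA1 at this place. Its other TLE3 site of the window lay at chr17:41535036-41537475, at 49.9 and 40.3, where SKBR3 replicate 1 had 78.1, SKBR3 replicate 2 34.5 and T47D 92.1 and 97.3.

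Several KRT19 places were absent or weak in MDA-MB-453. The place chr17:41506043-41507194, between KRT13 and KRT15, held the strongest FOXA1 peak of the window in SKBR3, at 99.6 and 99.1, and peaks at 94.7 and 96.6 in T47D. No MDA-MB-453 library, FOXA1 or TLE3, listed a peak there. TLE3 stood at 73.1 in SKBR3 replicate 1 and 32.3 in SKBR3 replicate 2, and was weak in T47D, at 3.33 and 13.5. Over the upper-coordinate end of KRT19, at chr17:41527521-41529597, FOXA1 was present in all 3 lines, at 77.4 and 74.5 in MDA-MB-453 and between 93.0 and 95.4 in the other 4 libraries. The TLE3 site at that end was of T47D, at 41.0 and 82.95. SKBR3 TLE3 replicate 2 also listed a peak over that end, at 46.0. The nearest TLE3 site to this end lay 7672 bp away in MDA-MB-453 and 5427 bp away in SKBR3 replicate 1.

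**Figure D3:**
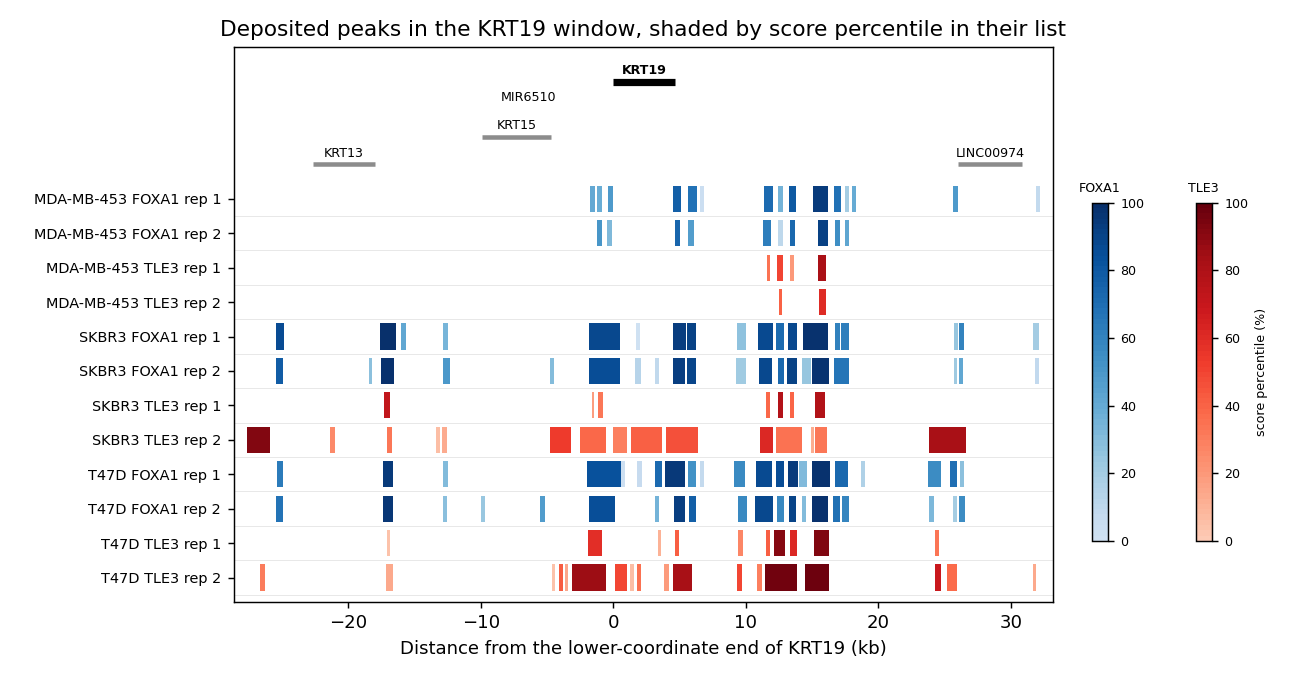
Peaks of the 12 libraries in the KRT19 window, drawn to scale against distance in kb from the lower-coordinate end of KRT19, blue for FOXA1 and red for TLE3, darker for a higher score percentile. MDA-MB-453 has no peak left of the gene where SKBR3 FOXA1 reaches 99.6, and its TLE3 peaks stand to the right of the gene.

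Counted by peak, the keratins drew on both factors in every library. KRT7 held 18 and 14 FOXA1 peaks and 10 and 6 TLE3 peaks in MDA-MB-453. In SKBR3 it held 21 and 21 FOXA1 peaks and 7 and 20 TLE3 peaks, and in T47D 16 and 16 FOXA1 peaks and 8 and 12 TLE3 peaks. In number, the FOXA1 libraries exceeded the TLE3 libraries of their line without overlap at KRT7. The share of genes that did so was not counted, so this order does not set KRT7 apart. In undivided numbers 9365 of 19538 genes had an unadjusted exact permutation p under 0.05 with TLE3 lower, and 0 with TLE3 higher. KRT8 held 17 and 14 FOXA1 and 8 and 5 TLE3 peaks in MDA-MB-453, 17 and 18 against 5 and 25 in SKBR3, and 24 and 19 against 10 and 18 in T47D. KRT18 held 9 and 7 against 5 and 3, 13 and 13 against 4 and 18, and 14 and 11 against 7 and 9 in the same order. The 2 genes overlapped between factors in SKBR3, where TLE3 replicate 2 listed more peaks than either FOXA1 library. KRT19 held 15 and 10 FOXA1 and 4 and 2 TLE3 peaks in MDA-MB-453, 18 and 20 against 7 and 15 in SKBR3, and 21 and 20 against 10 and 18 in T47D. MDA-MB-453 was low for KRT19 in both factors.

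Divided by list length, the order of the factors turned round. KRT7 had 0.936 ± 0.0300 FOXA1 peaks per 10000 listed peaks for MDA-MB-453, 1.88 ± 0.109 for SKBR3 and 1.08 ± 0.00849 for T47D (each a mean ± SD, n = 2). Its TLE3 values were 2.34 and 2.64 in MDA-MB-453, 3.31 and 2.12 in SKBR3, and 2.65 and 1.96 in T47D. Over the 3 lines TLE3 averaged 2.503 and FOXA1 1.30 for KRT7, a difference of 1.21 peaks per 10000 (log2 ratio 0.95), with an exact two-sided permutation p of 0.00926 and an adjusted p of 0.116. KRT8 averaged 2.56 against 1.31 and KRT18 1.68 against 0.824 peaks per 10000, each with the same exact permutation p of 0.00926, the smallest this design can give, and the same adjusted p of 0.116. KRT19 averaged 2.16 against 1.27, an exact permutation p of 0.0463 and an adjusted p of 0.236. None of the 4 passed after Benjamini-Hochberg adjustment over 19538 genes, and no gene did in either direction (0% called). The smallest p this design allows had an adjusted p of 0.116 in these data.

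Without adjustment all 4 had p under 0.05 with TLE3 higher, as did 2242 genes (11.5%), while 1582 genes (8.1%) had TLE3 lower. For KRT19 the unadjusted exact permutation p was 0.05 or higher without any 1 of 6 of the 12 libraries (up to 0.102, without SKBR3 TLE3 replicate 1), and 0.00926 without SKBR3 TLE3 replicate 2. In the upper 50% of each list by score its difference was 0.05 peaks per 10000 (exact permutation p = 0.926). There KRT7 had 0.96 (p = 0.12) and KRT18 0.86 (p = 0.0648) by the same permutation test, and KRT8, at 1.23, kept an unadjusted permutation p under 0.05, at 0.0278. The direction rests on the scale. In undivided numbers TLE3 was lower by 7.17 peaks for KRT7 and 8.0 for KRT19, both at an adjusted p of 0.0396 by the same exact permutation test, and the differences for KRT8 and KRT18 were -6.33 and -3.50. On that scale 4570 genes were called lower and 0 higher. With every list reduced to its 21149 highest scored peaks, KRT7 was lower in TLE3 (-1.02 per 10000). Its exact permutation p was 0.00926, the smallest this design can give, and its adjusted p was 0.347. KRT19 was lower too (-0.32, permutation p = 0.833). KRT8 and KRT18 remained higher, by 0.95 and 0.71, with unadjusted permutation p of 0.0278 and 0.0370. On that basis 716 genes had an unadjusted permutation p under 0.05 with TLE3 higher and 669 with TLE3 lower. Within the gene bodies alone the divided differences were smaller, 0.58 for KRT7, 0.50 for KRT8, 0.41 for KRT18 and 0.10 for KRT19 (exact permutation p = 0.333), and KRT19 had a p of 0.0833 by that permutation test within 10 kb. KRT7 held 7 and 7 of the strongest FOXA1 peaks in MDA-MB-453, 9 and 9 in SKBR3 and 8 and 8 in T47D, and 6 and 6, 7 and 3, and 7 and 6 of the strongest TLE3 peaks.

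**Figure D4:**
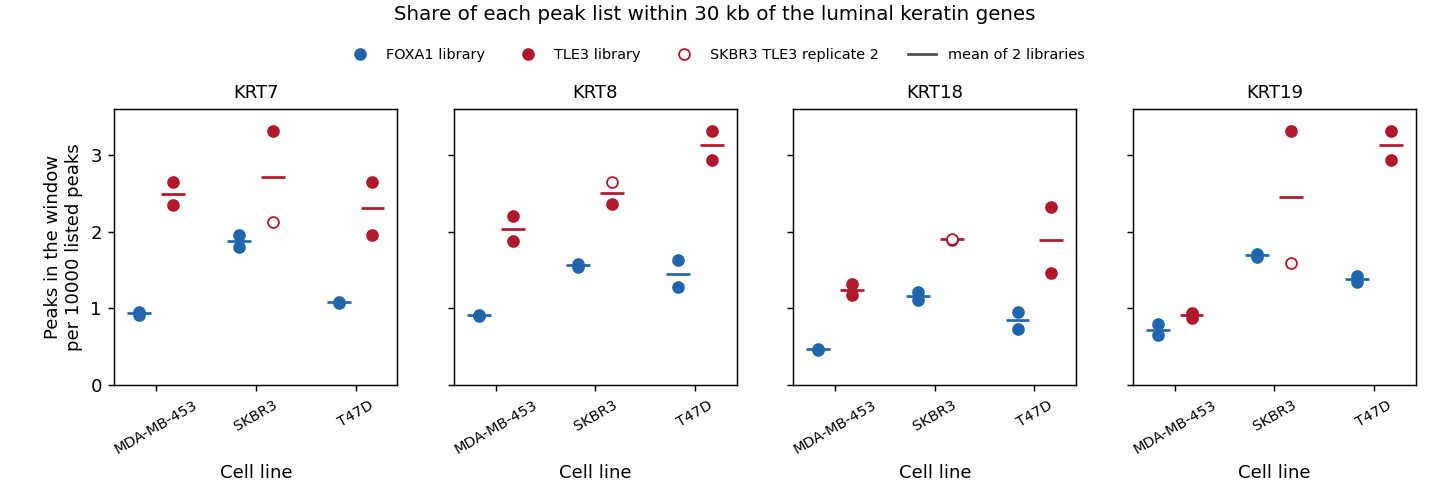
Peaks in each keratin window per 10000 listed peaks, by cell line on the horizontal axis; points are single libraries (blue FOXA1, red TLE3, open for SKBR3 TLE3 replicate 2) and bars the mean of 2. TLE3 points lie above the FOXA1 points of their line except for KRT19 in SKBR3, where they overlap; in undivided numbers TLE3 averages lower for all 4 genes, and with equally long lists for KRT7 and KRT19.

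Within each line, every TLE3 library stood above every FOXA1 library per 10000 peaks for all 4 keratins in MDA-MB-453 and T47D, which 21.6% and 35% of genes did. In SKBR3, 3 of the 4 did so, against 21.6% of genes. KRT19 was the exception, since TLE3 replicate 2 had 1.59 and the FOXA1 libraries 1.67 and 1.71. With SKBR3 replicate 1 alone all 4 did, against 34.2% of genes. These directions, like the averages, are those of the divided scale and turn in undivided numbers for all 4 genes in MDA-MB-453 and T47D. How many genes of the genome turn in this way was not counted, so the turn does not set the keratins apart.

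MDA-MB-453 was the lowest line for FOXA1. Both MDA-MB-453 FOXA1 libraries lay below the 4 others per 10000 peaks for all 4 keratins, against 19.2% of genes. KRT19, for example, had 0.798 and 0.654 in MDA-MB-453, 1.67 and 1.71 in SKBR3, and 1.43 and 1.34 in T47D. Among the 21149 strongest FOXA1 peaks the order held for all 4, with 1 and 1 at KRT19 in MDA-MB-453 against 8 and 7 in SKBR3 and 6 and 5 in T47D. The margin there was narrow for KRT7, 7 and 7 against 8 and 8 in T47D, and for KRT18, 1 and 1 against 2 and 3 in SKBR3. In undivided numbers it held for KRT18 and KRT19, while KRT7 and KRT8 overlapped with another line. For TLE3, both MDA-MB-453 libraries lay below those of the other lines for KRT8, KRT18 and KRT19, against 15.3% of genes with SKBR3 replicate 2 and 18.3% without it. KRT7 differed: its TLE3 values in the 3 lines overlapped. Among the 21149 strongest TLE3 peaks the order was lost for KRT8, KRT18 and KRT19 with SKBR3 replicate 2 counted. There KRT8 had 5 and 5 in MDA-MB-453 and 5 and 5 in SKBR3. KRT18 had 3 and 3 against 4 and 2, and KRT19 1 and 2 against 7 and 2. By SKBR3 replicate 1 alone the order held for KRT18 and KRT19. In undivided numbers it held for KRT19, while KRT8 and KRT18 overlapped with SKBR3. TLE3 at KRT19 was 0.909 ± 0.0396 (SD, n = 2) per 10000 for MDA-MB-453 against 3.12 ± 0.271 for T47D. With 2 libraries a line these orders carry no test. Their share of all genes was counted per 10000 listed peaks alone, not for the strongest peaks or the undivided numbers.

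Ordered from the highest per 10000, KRT7 ran SKBR3 TLE3, MDA-MB-453 TLE3, T47D TLE3, SKBR3 FOXA1, T47D FOXA1 and MDA-MB-453 FOXA1, and the 3 TLE3 groups overlapped with their neighbours. KRT8 ran T47D TLE3, SKBR3 TLE3, MDA-MB-453 TLE3, SKBR3 FOXA1, T47D FOXA1 and MDA-MB-453 FOXA1, and here SKBR3 and T47D FOXA1 overlapped. For KRT18 the order was SKBR3, T47D and MDA-MB-453 for both factors, all TLE3 groups above all FOXA1 groups by their means on this divided scale. SKBR3 and T47D TLE3 overlapped there, and so did MDA-MB-453 TLE3, at 1.17 and 1.32, with SKBR3 FOXA1, at 1.21 and 1.11. KRT19 alone of the 4 placed a TLE3 group, MDA-MB-453 at 0.881 and 0.937, below the FOXA1 groups of SKBR3 and T47D.

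As sites of both replicates, KRT7 held 14 FOXA1 and 6 TLE3 sites in MDA-MB-453, 20 and 7 in SKBR3, and 15 and 8 in T47D. KRT8 held 14 and 5, 15 and 5, and 17 and 9 in the same order. KRT18 held 7 and 3, 12 and 4, and 10 and 6. KRT19 held 10 and 2, 16 and 7, and 17 and 7. All 4 keratins thus had a TLE3 site in all 3 lines, where 45.3% of genes had one in MDA-MB-453, 47.7% had one in SKBR3 and 65.4% had one in T47D. FOXA1 sites were common near genes in general, at 92.1%, 84.2% and 91.4% of genes. Per 100 kb of window, KRT7 had 7.26 TLE3 sites in MDA-MB-453, more than 99.9% of genes, and KRT19 had 3.09, more than 95.7%. FOXA1 density ranked high too: in MDA-MB-453 KRT7 had 16.95 FOXA1 sites per 100 kb, more than 98.9% of genes. KRT19 had 15.46 there, more than 98.3%. Over the 4 keratins and 3 lines, FOXA1 density exceeded that of 91.85% (KRT18 in MDA-MB-453) to 99.97% (KRT19 in SKBR3) of genes. SKBR3 TLE3 replicate 2 placed 20 peaks at KRT7, 25 at KRT8, 18 at KRT18 and 15 at KRT19, and 94.4% of genes had one of its peaks.

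In the full lists the TLE3 sites of the keratins lay on FOXA1 sites, and the share of FOXA1 sites with TLE3 differed by line. In MDA-MB-453, 13 of 39 FOXA1 sites overlapped a TLE3 site, 33.3% (95% Wilson interval 20.6 to 49.0) against 15.8% of all FOXA1 sites. In SKBR3 17 of 52 did, 32.7% (21.5 to 46.2) against 20.9%, and in T47D 28 of 50, 56.0% (42.3 to 68.8) against 21.9%. Intervals cover counting error only. All 13 TLE3 sites in MDA-MB-453, all 19 in SKBR3 and all 24 in T47D overlapped a FOXA1 site, where 99.3%, 93.5% and 87% of all TLE3 sites did. SKBR3 TLE3 replicate 2 gave 36 of 52 FOXA1 sites (69.2% against 22.4%) and 38 of its 61 keratin peaks with FOXA1 (62.3% against 21.7%).

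The shares depend on list length and on single libraries. Among the 21149 strongest peaks of each list, the keratin FOXA1 sites were few. In MDA-MB-453 7 of 10 overlapped TLE3 (70.0%), in SKBR3 11 of 20 (55.0%) and in T47D 12 of 17 (70.6%). Of all FOXA1 sites 63.4%, 60.6% and 55.3% did. With so few sites MDA-MB-453 and SKBR3 stood near those shares, SKBR3 on the lower side. TLE3 sites with FOXA1 fell short of complete on that basis, at 7 of 12 (58.3%), 13 of 19 (68.4%) and 11 of 18 (61.1%). The shares of all TLE3 sites were 71.1%, 58.3% and 58.5%. The MDA-MB-453 share was 56.4% without TLE3 replicate 2, the shorter list. The SKBR3 share was 69.2% without TLE3 replicate 1, and the T47D share was 72.0% without TLE3 replicate 1. By gene, the share was lowest for KRT19 in MDA-MB-453, 2 of 10, and highest for KRT19 in T47D, 11 of 17, where the 7 TLE3 sites included broad ones that covered more than 1 FOXA1 site. KRT7 had 6 of 14, 6 of 20 and 8 of 15 FOXA1 sites with TLE3 in MDA-MB-453, SKBR3 and T47D. Intervals of the single genes overlapped one another within every line.

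**Figure D5:**
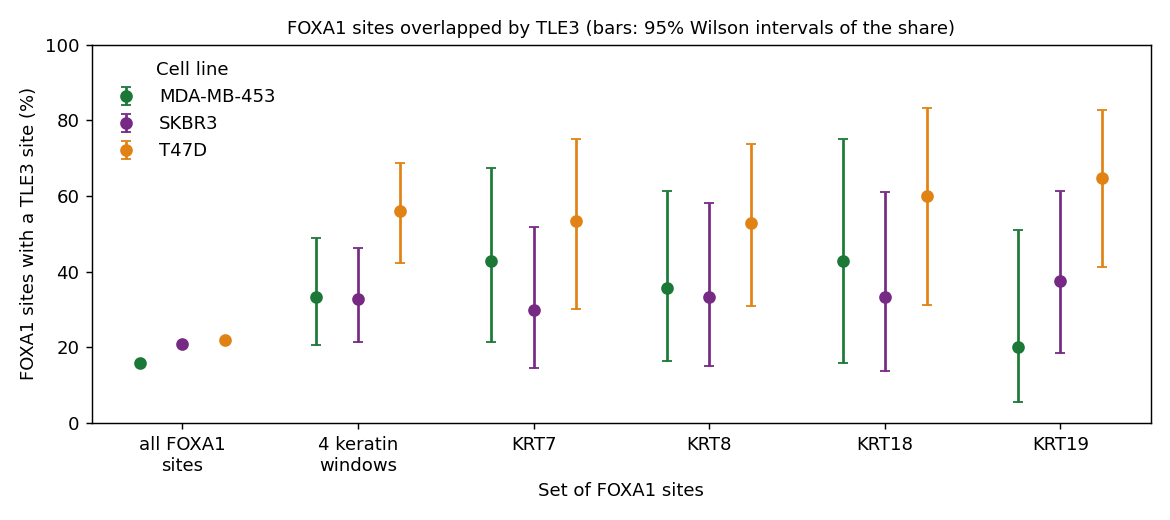
Share of FOXA1 sites overlapped by a TLE3 site, in percent, for all FOXA1 sites, for the 4 keratin windows together and for each gene; points are the 3 cell lines and bars the 95% Wilson intervals. The keratin shares of 33.3%, 32.7% and 56.0% stand above the shares of all sites, 15.8%, 20.9% and 21.9%. With equally long lists the sites are few. MDA-MB-453 (7 of 10) and SKBR3 (11 of 20) then lie near the shares of all sites, SKBR3 below, 55.0% against 60.6%.

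FOXA1 sites of the keratins were often shared by the lines. Merged over lines, the windows held 63 FOXA1 sites, of which 30 (47.6%) were present in all 3 lines, against 22.2% of 196570 merged sites. Of those 30, 22 (73.3%) had TLE3 in at least 1 line, against 51.3% of such sites everywhere. TLE3 was present in all 3 lines at 9 of them (30% against 14.1%) and in none at 8 (26.7% against 48.7%). The pattern of the first KRT7 place described, TLE3 in MDA-MB-453 and T47D and not SKBR3, was that of 3 sites (10% against 7.42%). Its counterpart with TLE3 in SKBR3 and T47D and not MDA-MB-453 was that of 6 (20.0% against 5.81%). MDA-MB-453 was the sole line with TLE3 at 0 of the 30 sites, a pattern of 5.56% of all such sites.

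In the keratin windows, FOXA1 peaks that overlapped TLE3 ranked higher and were wider than the others. The same comparison was not made for FOXA1 peaks elsewhere, so it does not set the keratins apart. Over the 6 FOXA1 libraries, keratin peaks with TLE3 had median percentiles of 85.5 to 90.6 and those without 41.2 to 58.9. The proportion of pairs in which the peak with TLE3 outranked the one without was between 0.754 and 0.819 in these libraries. Median widths were 684 to 860 bp with TLE3 and 400 to 492 bp without, and a wider peak has more room to overlap. Peaks of 1 library share a source, so no p is given. Several places went against the order. Among them was the LINC00592 place described above, with FOXA1 at 94.5 to 97.2 and no TLE3 site. Another was chr12:52239796-52240539 in KRT7, with FOXA1 at 88.65 to 91.87 and no TLE3 site. In SKBR3 the first KRT7 place described did so too, with FOXA1 at 99.3 and 98.7 and no TLE3 peak.

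The strongest FOXA1 peak of each keratin ranked high in its list, but so did that of many genes. For KRT7 it stood at percentiles of 99.3 to 99.8 over the 6 FOXA1 libraries, and between 96.3% and 98.5% of genes had a weaker best peak. For KRT8 it stood at 95.4 to 99.3, with 82.4% to 95.5% of genes weaker. KRT18 shares that peak with KRT8 in MDA-MB-453 and T47D. In SKBR3 its best FOXA1 peaks stood at 92.9 and 90.9, with 75.6% and 69.8% of genes weaker. KRT19 had 94.3 and 92.1 in MDA-MB-453, with 69.99% and 68.0% of genes weaker, and 99.0 to 99.6 in the other lines, with 93.7% to 98.1% weaker. The strongest TLE3 peak of KRT7 stood at 93.3, 92.1, 83.03, 94.9, 90.4 and 94.7 in the 6 TLE3 libraries, taking MDA-MB-453, SKBR3 and T47D in turn, and 70.2% to 93.5% of genes had a weaker one.

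Genes were compared with each luminal keratin by these best-peak percentiles over the 12 libraries. Genes within 100 kb of any luminal keratin were left out, so neighbours that share its peaks could not be named. Among the rest, the genes most like KRT7 were ACSM3, SMTN and ENTPD6, with mean absolute differences of 0.98, 1.05 and 1.05 percentile points. HECTD4, CCL28 and BARX2 were nearest to KRT8, at 1.21, 1.36 and 1.43. For KRT18 they were TMEM217 and TMEM217B, both at 2.13, and TBC1D22B at 2.42. KRT19 was nearest to MAFF, USP9X and TSPAN9, at 1.80, 2.05 and 2.17. These are likenesses of rank alone.

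The other keratins of the genome gave a point of reference. All 51 listed were matched, and 12 of them shared part of a window with a luminal keratin. A TLE3 site lay within 30 kb of 24 of the 51 in MDA-MB-453; in SKBR3 this was so for 29 and in T47D for 36. Without the 12, the counts were 19, 20 and 26 of 39. The median number of TLE3 sites was 0, 1 and 1 for the 51 and 4, 6 and 7.5 for the luminal 4. FOXA1 medians differed in the same direction, at 3, 4 and 4 for the 51 and 12, 15.5 and 16 for the luminal 4. These numbers were not divided by window length, and KRT8 and KRT18 share sites. Of the 21 keratins of basal and stratified epithelia, 9 had a TLE3 site in MDA-MB-453, 11 had one in SKBR3 by replicate 1 (all 21 by replicate 2) and 14 had one in T47D. Among them KRT5 and KRT14, the basal layer keratins of the breast, named here after their values were seen, had no TLE3 site in any line, with 0, 4 and 1 FOXA1 sites for KRT5 and 0, 2 and 1 for KRT14 in MDA-MB-453, SKBR3 and T47D. SKBR3 TLE3 replicate 2 listed 8 peaks at KRT5 and 5 at KRT14. Others of the 21 went the other way. KRT15 had 16 TLE3 sites summed over the 3 lines, as many as KRT19, whose window overlaps its own. No test was made between these lists.

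Simple-epithelium keratins outside the luminal 4 also carried TLE3. KRT23, KRT80 and KRT20, a keratin of intestinal epithelium, had 14, 11 and 7 TLE3 sites summed over the 3 lines, where KRT7 had 21, KRT8 19, KRT19 16 and KRT18 13. All 4 keratins listed as simple had a TLE3 site in every line, and KRT80 shares part of the KRT7 window. Among the keratins of basal and stratified epithelia KRT15 had 16, and KRT13, KRT4, KRT79 and KRT9 had 8 each. The windows of KRT15, KRT13 and KRT9 overlap that of KRT19, and those of KRT4 and KRT79 overlap no luminal keratin window. Among hair keratins KRT40 had 11, and the neighbours KRT31, KRT37 and KRT38 had 8 each.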

How the data were processed

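ChIP-seq for FOXA1 and TLE3 was deposited as 12 peak lists, 2 per factor and line; the 6 inputs were not used here. Per the submitters' processing notes the tools were Trim Galore, BWA 0.7.5a, SAMtools and MACS2 on hg38; their parameters were not given in the sources used here. Every library has its own deposited list of intervals, with a score whose quantity the authors did not name, so the score ranked peaks within a list and nothing else. Peaks outside chromosomes 1 to 22 and X (15) were left out.

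Gene records came from RefSeq (GRCh38.p14). For each of the 19538 protein-coding genes with a peak within 30 kb, TLE3 minus FOXA1 peaks per 10000 listed peaks, averaged over lines, was tested by exchanging factor labels within lines in all arrangements (exact permutation, two-sided), with Benjamini-Hochberg adjustment and a threshold of 0.05. Sites merged peaks overlapping by 1 bp or more, and a site belonged to a window by its centre. Places named by coordinates are groups of peak centres at most 250 bp apart, and a broad peak covering 2 places counts at both. The test was tried on simulated data of 19444 genes, 200 of them changed 4-fold. Of these 90.5% reached the smallest permutation p, and 5.75% of the others had a permutation p under 0.05. Counts were drawn as Poisson with a single mean per gene for all lines and replicates, and changes were planted in genes above the median alone. The keratin log2 ratios were 0.77 to 1.03, so the 90.5% does not give the power for them.

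The 4 members, the keratin lists and the rule for named genes (the members, genes holding a site, the 3 most alike genes per member and up to 3 keratins per class with the most TLE3 sites) were chosen with earlier results of these data known. Keratins tied with the last of those named in a class are named too. Alternatives changed the window, list length, overlap, site definition, scale and libraries. Python 3.11.15, numpy 2.4.6, pandas 2.3.3 and matplotlib 3.10.9 were used.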

Additional observations from a re-analysis of the deposited data

How the results depend on the processing

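With the peak numbers left undivided, the TLE3 minus FOXA1 difference reversed to -7.17 for KRT7, -6.33 for KRT8, -3.50 for KRT18 and -8.00 for KRT19, and 4570 genes were called lower. With equally long lists it reversed to -1.02 for KRT7 and -0.32 for KRT19, and the shares of FOXA1 sites with TLE3 in MDA-MB-453, SKBR3 and T47D moved to 70.0%, 55.0% and 70.6% and those of TLE3 sites with FOXA1 to 58.3%, 68.4% and 61.1%. Fewer FOXA1 peaks enter by construction there, with 10, 20 and 17 keratin FOXA1 sites left in the 3 lines. A 10 kb window gave 70.4% of FOXA1 sites with TLE3 in T47D, and the gene bodies alone 17.6% in SKBR3; with centres within 250 bp the T47D shares were 40.0% and 83.3%. Sites of either replicate gave 65.1% for both shares in SKBR3 and 84.0% of TLE3 sites with FOXA1 in T47D. The cause was not tested. Leaving out each library in turn gave differences of 1.01 to 1.40 for KRT7, 1.19 to 1.31 for KRT8, 0.71 to 1.00 for KRT18 and 0.61 to 1.18 for KRT19, with 0 genes called in either direction and a lowest adjusted p of 0.0563 without SKBR3 TLE3 replicate 2. FOXA1 sites with TLE3 then ranged from 25.5% to 56.4% in MDA-MB-453, 28.3% to 69.2% in SKBR3 and 48.2% to 72.0% in T47D, and TLE3 sites with FOXA1 from 100.0% to 100.0%, 62.3% to 100.0% and 71.4% to 100.0%. Replicate numbers did not pair the samples (correlations of deviations 0.05, 0.03 and -0.01 in the 3 lines over 19538 genes). With a replicate block the 4 differences were the same, 0 genes were called, and the lowest adjusted p was 0.296, where the smallest p the 64 arrangements allow is 0.0313; the unadjusted p of KRT19 was then 0.0625 by this exact permutation. Depth is unknown, so an absent peak is a place not listed, and 2 libraries a group limit the precision.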
